A study of Mus musculus with 21 samples.

Results

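The genes described here are those that fat cells use to store and release fat and those that make fatty acids. They were listed by name, 35 genes in all, and 32 of them were measured by a probe set with a single gene symbol, among 22180 genes measured in the series. Cfd, Acsl1 and Adrb3 had no such probe set and were not analysed here. For a gene with several probe sets, the brightest on average over the 21 arrays stood for it.

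White fat cells hold triglyceride in a droplet coated by perilipins, take up fatty acids that lipoprotein lipase frees from blood lipoproteins, and secrete adiponectin, leptin and resistin. Their identity rests on the transcription factors PPARgamma and C/EBPalpha. Fatty acid synthesis runs from citrate through Acly, Acaca and Fasn, is driven in many tissues by the transcription factor Srebf1, and is used by fat cells, milk-producing mammary cells and many carcinoma cells alike. The mammary gland lies within a fat pad, so a mammary tumour grows beside fat cells.

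Py117 and Py8119 are mouse mammary carcinoma lines cloned from tumours of MMTV-PyMT mice, in which a mammary promoter drives the polyoma middle T oncogene. Each line was arrayed as a culture in Hams F12K medium with 5% serum (3 arrays a line) and as tumours after 1000000 cells were placed in mammary fat pad 4 in PBS and matrigel (5 tumours a line). In addition, 5 mixed tumours, named Py5050 in the protocol, grew from both lines implanted together. Nothing was treated, and tumours were taken on the day on which irradiation would have been given. The strain, sex and age of the hosts are not given in the sources used here. Replicates are labelled as biological, with no word on separate animals or passages, so the p-values measure the spread between these samples.

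All values are log2 array signals, on which 1 unit is a doubling. A set of 1394 olfactory and vomeronasal receptor genes, which these cells have no known use for, had a 95th percentile of 5.31, and a gene with a mean below that is called here at background. Array medians ran from 5.24 to 5.53, and arrays of 1 group correlated at 0.9845 or above, except in Py117 tumours, where r fell as low as 0.9695. Mammary epithelial markers averaged 9.82 to 9.92 in Py117 culture and 6.13 to 6.41 in Py8119 culture, far lower in Py8119. A tumour array sums carcinoma and host cells, so that fewer cells of a type and less RNA per cell cannot be told apart. Culture and tumour arrays may also have been processed at different times, which cannot be told apart from growth in the host.

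Promoter sequences are shown for 4 genes that stand for the patterns described next: Adipoq and Plin1, which varied together between Py117 tumours, Thrsp, which was high in every Py117 tumour, and Fasn, which was high in all samples. They are the 250 bases before the annotated start, from RefSeq (GRCm38.p6), written 5′ to 3′ on the strand of the gene. Adipoq lies at chr16:23146286-23146535 on the plus strand, Plin1 at chr7:79732777-79733026 on the minus strand, Thrsp at chr7:97417551-97417800 on the minus strand and Fasn at chr11:120824548-120824797 on the minus strand. Capitals mark CCAAT, the CCAAT box, or its reverse complement in Adipoq, Thrsp and Fasn, and TTGCNNAA, a C/EBP site, in Plin1.
Adipoq: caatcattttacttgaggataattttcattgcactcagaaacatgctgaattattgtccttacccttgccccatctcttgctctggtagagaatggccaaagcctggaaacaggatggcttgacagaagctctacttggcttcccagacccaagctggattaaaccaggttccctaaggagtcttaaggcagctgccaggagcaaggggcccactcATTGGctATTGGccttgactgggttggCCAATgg
Plin1: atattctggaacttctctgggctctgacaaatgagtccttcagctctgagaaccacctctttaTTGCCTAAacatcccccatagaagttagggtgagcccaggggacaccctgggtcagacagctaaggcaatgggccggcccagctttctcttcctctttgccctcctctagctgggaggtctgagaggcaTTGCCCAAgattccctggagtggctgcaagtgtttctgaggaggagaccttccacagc
Thrsp: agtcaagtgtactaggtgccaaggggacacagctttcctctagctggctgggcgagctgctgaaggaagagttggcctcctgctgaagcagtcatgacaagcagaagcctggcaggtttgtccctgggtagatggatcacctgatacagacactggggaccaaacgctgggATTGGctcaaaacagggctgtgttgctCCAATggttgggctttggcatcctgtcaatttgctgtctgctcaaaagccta
Fasn: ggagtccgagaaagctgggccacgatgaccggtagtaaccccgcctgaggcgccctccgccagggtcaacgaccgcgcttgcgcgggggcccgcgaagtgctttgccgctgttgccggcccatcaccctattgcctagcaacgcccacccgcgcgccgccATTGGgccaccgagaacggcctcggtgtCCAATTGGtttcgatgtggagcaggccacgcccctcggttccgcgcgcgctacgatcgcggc
Both strands were searched for 6 motifs. CCAAT was found 3 times in Adipoq, beginning 34, 27 and 7 bases before the start, 2 times in Thrsp, at 79 and 52 bases, and 3 times in Fasn, at 90, 62 and 59 bases, where the last pair overlap. TTGCNNAA was found in Plin1 only among these 4, at 187 and 58 bases. Of the 32 measured members, 23 have such a window in the table, and 8 of them hold CCAAT and 4 hold TTGCNNAA, against 33.8% and 9.56% of all 32851 windows. AGGTCA, part of a PPAR response element, was in 6 members and in 14.0% of all windows, CACGTG, the E box, in 2 members and 6.02%, TATAAA, the TATA box, in 2 and 12.4%, and GGGCGG, the GC box, in 11 and 32.7%. None of these last 4 motifs is in the 4 printed windows. A match is a description and not a bound site.

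Of the genes known best from fat cells, Adipoq, Lep, Plin1 and Pck1 were near or below background in both cultures. They stood above all other arrays in Py117 tumours 1, 4 and 5 only. In mixed and Py8119 tumours the means of Adipoq and Lep were at background. Those of Plin1 and Pck1 were a little above it, at 5.505 and 5.43 in mixed tumours. Others, among them Fabp4, Car3, Retn, Cd36 and Lpl, had means further above background in mixed and Py8119 tumours. Adipoq, which encodes adiponectin, read 6.85, 4.14, 4.66, 5.85 and 7.45 in Py117 tumours 1 to 5. It read 5.48, 4.79, 4.29, 4.61 and 4.69 in the mixed tumours and 4.53, 4.49, 4.53, 5.47 and 4.56 in Py8119 tumours. Py117 tumours 1, 4 and 5 were thus the highest of all 15, Py117 tumours 2 and 3 lay among or below the other tumours, and mixed tumour 1 and Py8119 tumour 4 were the highest of their groups. The 6 cultures read 4.00 to 4.95, all at background.

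The other secreted proteins had the same high samples. Retn, resistin, read 9.37, 5.79, 6.19, 8.31 and 8.91 in Py117 tumours, against 5.91 to 6.58 in mixed tumours, 5.76 to 7.03 in Py8119 tumours and 5.25 to 5.93 in culture. Lep, leptin, read 7.65, 5.07, 5.69, 6.62 and 7.77 in Py117 tumours and 4.54 to 5.77 in all other samples. For both genes Py117 tumours 1, 4 and 5 stood above every other array, while tumours 2 and 3 overlapped the mixed and Py8119 tumours.

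Among the droplet proteins, Cidec, which enlarges the single droplet of the white fat cell, read 8.54, 5.52, 5.42, 7.62 and 8.92 in Py117 tumours. It read 5.64 to 5.90 in mixed tumours, 5.18 to 6.37 in Py8119 tumours and 5.31 to 5.54 in culture. Plin1, perilipin 1, the gatekeeper of droplet lipolysis, read 7.55, 5.63, 5.62, 6.54 and 7.36 in Py117 tumours and 5.16 to 5.76 elsewhere. Plin4, another perilipin, was similar in shape, from 6.04 to 7.74 in Py117 tumours and from 5.47 to 6.37 elsewhere. Again the 3 high arrays were Py117 tumours 1, 4 and 5.

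The widest spread belonged to Car3, carbonic anhydrase 3, an abundant protein of fat cells and slow muscle. It read 11.77, 6.39, 5.39, 10.94 and 11.81 in Py117 tumours, 8.08, 7.25, 6.27, 6.67 and 7.15 in mixed tumours and 7.16, 6.37, 6.54, 8.97 and 6.62 in Py8119 tumours. Within Py117 tumours that is a range of 6.42, and Py117 tumour 3 was lower than every mixed and Py8119 tumour. Skeletal muscle markers averaged 4.91 to 5.34 in Py117 tumours, and Myh4, Myh1, Myh2, Mylpf and Pvalb were at background in all 5 groups. Of the 10 markers, 4 had a mean above background in Py117 tumours: Acta1 at 6.48, Tnni2 at 6.25, Tnnt3 at 6.01 and Ckm at 5.67. The part of muscle in the level of Car3 was not tested. Pck1, which supplies glycerol for triglyceride in fat cells, read 8.23, 5.32, 5.78, 6.85 and 8.79 in Py117 tumours and 5.20 to 5.82 in all other samples.

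Pparg, the master factor of fat cells, and the triglyceride genes Dgat2 and Gpd1 followed the same order. Pparg read 7.34, 5.78, 5.67, 6.65 and 7.46 in Py117 tumours, 5.18 to 5.46 in mixed and 4.92 to 5.34 in Py8119 tumours, beside 5.38 to 5.58 in Py117 culture and 4.91 to 5.05 in Py8119 culture. Every Py117 tumour was thus above every mixed and Py8119 tumour in Pparg, tumours 2 and 3 by little. Dgat2 read 8.18, 6.05, 6.09, 7.24 and 8.03 in Py117 tumours, 5.98 to 6.07 in mixed and 5.64 to 6.25 in Py8119 tumours, but 7.27, 6.95 and 6.91 in Py8119 culture and 5.99 to 6.34 in Py117 culture. Gpd1 read 7.84, 5.96, 5.94, 6.36 and 7.94 in Py117 tumours, 5.54 to 5.88 in mixed and 5.47 to 5.60 in Py8119 tumours. Dgat2 therefore had a high group, the Py8119 culture, in which the fat cell genes were at or near background.

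Counted over the members, 10 of 32 had a range above 2 log2 units among Py117 tumours, 0 among mixed tumours and 1, Car3 with 2.61, among Py8119 tumours. In 25 of 32 members Py117 tumours 1, 4 and 5 were the 3 highest of the 5. The exceptions were Cidea, G0s2, Aqp7, Slc2a4, Cebpa, Agpat2 and Ucp1. The shares of all genes with such a range or order were not computed, so these counts describe the members alone. Some of the 25 rest on small gaps: tumours 1, 4 and 5 stood above tumours 2 and 3 by only 0.0009 for Acly and 0.012 for Mlxipl.

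**Figure D1:**
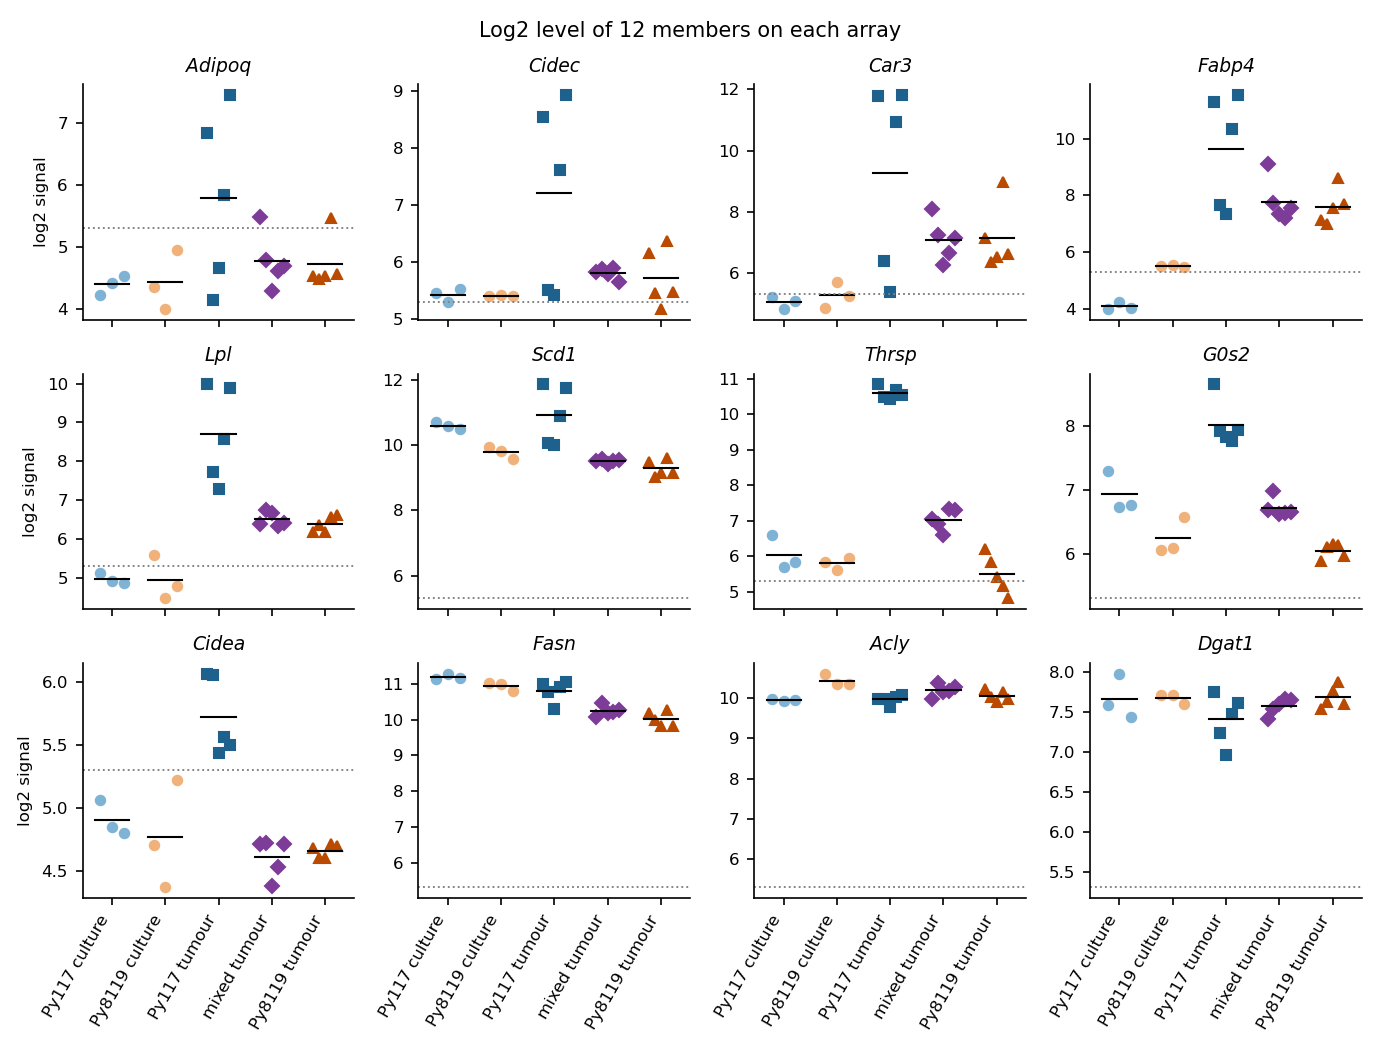
Log2 signal (y axis) of 12 members on each of the 21 arrays by group, with 1 point per array, a bar at the group mean and a dotted line at the background reference of 5.31. Adipoq, Cidec, Car3 and Fabp4 split the Py117 tumours into 3 high and 2 low arrays, Thrsp is between 10.44 and 10.85 in all 5, and Fasn, Acly and Dgat1 are far above background in every group.

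To separate members that moved with these fat cell genes from members that did not, a fat index was formed for each array as the mean log2 level of Adipoq, Plin1 and Cidec. It was 7.65, 5.10, 5.23, 6.67 and 7.91 in Py117 tumours, 5.62, 5.42, 5.11, 5.29 and 5.36 in mixed tumours and 5.42, 5.14, 4.98, 5.82 and 5.18 in Py8119 tumours, beside 4.87 to 5.31 in culture. For every gene outside the index, limma then fitted the slope on the index within the 3 tumour groups, with Benjamini-Hochberg adjustment over all 22177 genes tested. A slope of 1 means that a gene doubled when the index doubled. Over all genes 2% were called in either direction, 1.19% with a positive slope and 0.807% with a negative one.

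Of the 29 members outside the index, 14 had a positive slope and 0 a negative one at an adjusted p under 0.05 in limma. At an unadjusted p under 0.05, 22 and 0 did, with no share of all genes computed at that threshold. Their median slope was 0.24, beside -0.01 over all genes. Steepest were Car3 at 2.34 ± 0.19 (SE, adjusted p 1.55e-06), Fabp4, the fatty acid carrier of fat cells, capillaries and macrophages, at 1.53 ± 0.14 (1.73e-05), Retn at 1.20 ± 0.09 (1.55e-06), Pck1 at 1.09 ± 0.07 (7.43e-07) and Cd36, a fatty acid receptor, at 1.02 ± 0.07 (1.18e-06). Lep at 0.89, Lpl at 0.86, Dgat2 at 0.74, Gpd1 at 0.68, Scd1 at 0.67, Pparg at 0.59, Plin4 at 0.56, Aqp7 at 0.33 and Pnpla2 at 0.28 were also called. A slope below that of the index genes themselves, 1.24 for Cidec, 1.09 for Adipoq and 0.67 for Plin1, which were not tested, means only that the array signal of that gene spanned less.

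The index spanned 5.10 to 7.91 in Py117 tumours. In the mixed and Py8119 tumours alone, where the index spanned 4.98 to 5.82, 1 member was called, Car3, with a slope of 3.23 (limma adjusted p 0.00244), which was the only positive call among all genes, 0.00451% of them. That alternative was added after the data were seen. Endothelial markers averaged 8.37, 8.08, 7.55, 8.05 and 8.12 in Py117 tumours 1 to 5 and macrophage markers 9.58, 9.80, 9.97, 9.67 and 9.82. Markers of fat stroma and fibroblasts averaged 9.12, 10.13, 9.88, 9.47 and 9.32, lowest in tumours 1 and 5 where the index was highest. The slope was called for 0 of 10 endothelial, 1 of 10 macrophage (Fcgr1, negative) and 2 of 9 stromal markers (Dpp4 and Pi16, both negative). Of 10 mammary epithelial markers it was called for 3, positive for Krt19 (0.38) and Cldn3 (0.49) and negative for Krt14 (-0.34), and of 10 milk genes for 2, positive for Elf5 (0.28) and negative for 1. Over all genes the shares were 1.19% positive and 0.807% negative. At an unadjusted p under 0.05 in limma, 4 of 10 endothelial markers were positive (median slope 0.17). By that measure 4 of 9 stromal (median -0.29), 2 of 10 macrophage and 5 of 10 skeletal muscle markers were negative. Mammary epithelial and milk markers had 3 positive and 1 negative each. The share of all genes at the unadjusted threshold was not computed.

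**Figure D2:**
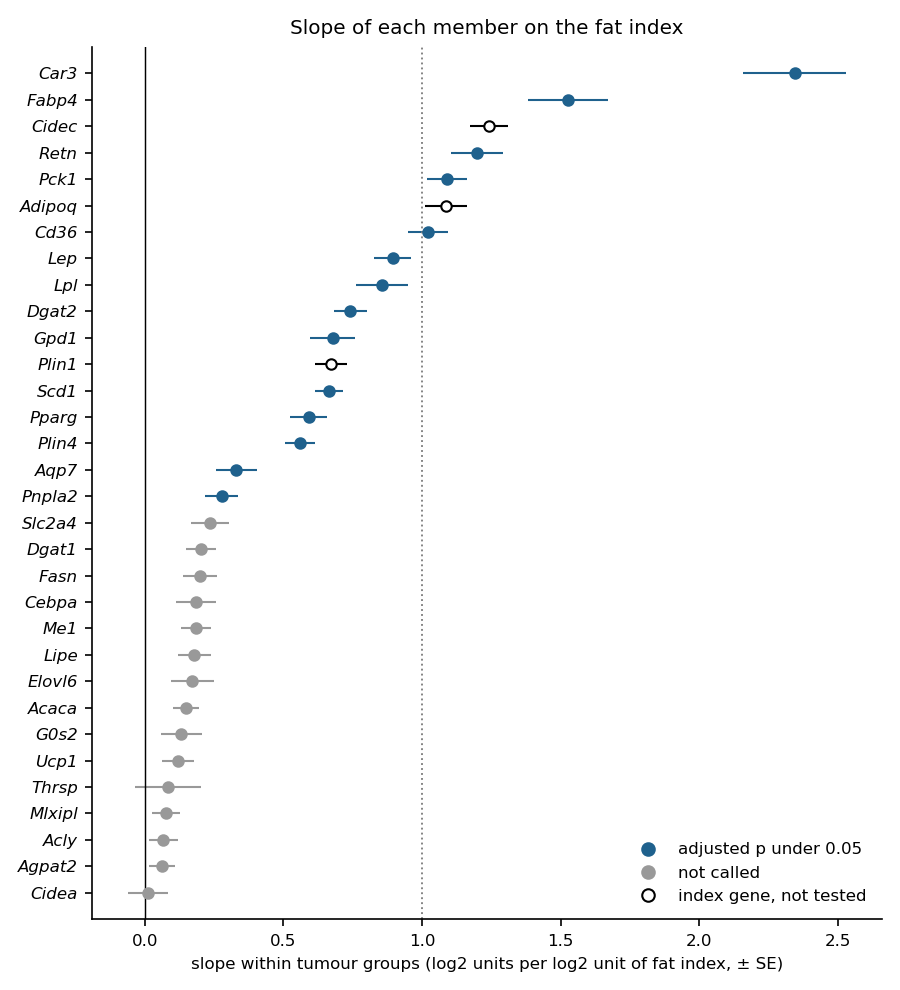
Slope of each of the 32 members on the fat index within tumour groups (log2 units per log2 unit, x axis; bars are the standard error; dotted line at a slope of 1), with called members in blue, others in grey and the 3 index genes as open points. Among called members Car3, Fabp4, Retn, Pck1 and Cd36 lie at 1.02 or more, as do the index genes Cidec and Adipoq. Thrsp, Mlxipl, Acly, Agpat2 and Cidea are the lowest, from 0.08 down to 0.01.

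No slope was called for 15 members, and they fall into sets by level. Thrsp, spot 14, a lipogenic protein of fat, liver and lactating mammary gland, had a slope of 0.08 ± 0.12 (limma adjusted p 0.736). It read 10.85, 10.50, 10.44, 10.69 and 10.55 in Py117 tumours, 7.04, 6.90, 6.59, 7.34 and 7.29 in mixed tumours and 6.20, 5.83, 5.41, 5.17 and 4.82 in Py8119 tumours. The 3 tumour groups did not overlap, and within Py117 tumours the range was 0.41, with tumours 2 and 3, which had the lowest index, at the bottom of it. In culture Thrsp read 6.59, 5.70 and 5.82 in Py117 and 5.84, 5.61 and 5.95 in Py8119, so the level of the Py117 tumours was not seen in cultured Py117 cells.

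Other members were high in all 5 Py117 tumours without a called slope. G0s2, an inhibitor of the lipase Pnpla2, read 8.66, 7.93, 7.83, 7.77 and 7.95 there, 6.63 to 6.99 in mixed and 5.89 to 6.16 in Py8119 tumours, with no overlap between the 3 groups (slope 0.13 ± 0.07, limma adjusted p 0.347). Cidea, a droplet protein of brown fat and lactating mammary epithelium, read 6.07, 6.06, 5.44, 5.56 and 5.50, against 4.38 to 4.72 in mixed and 4.60 to 4.71 in Py8119 tumours, both at background (slope 0.01 ± 0.07, 0.939). Cebpa read 8.19, 7.92, 7.33, 7.66 and 8.20, against 6.97 to 7.29 in mixed and 6.71 to 7.18 in Py8119 tumours (slope 0.19 ± 0.07, 0.175). For these genes each Py117 tumour was above each mixed and Py8119 tumour.

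Srebf1, which is no member, ran beside Thrsp. It read 9.91 to 10.27 in Py117 tumours, 7.86 to 8.48 in mixed and 7.43 to 7.73 in Py8119 tumours, with a slope of -0.02 (limma adjusted p 0.908). Unlike Thrsp it also differed between the cultures, at 8.95, 8.53 and 8.29 in Py117 and 7.95, 7.81 and 7.87 in Py8119. Milk genes averaged 5.71 to 6.18 in Py117 tumours, 4.86 to 5.38 in mixed and 4.61 to 4.80 in Py8119 tumours, and 5 of 10 were lower in Py8119 than in Py117 tumours, where 16.5% of all genes were. Of these 10, Csn2, Csn1s1, Lalba and Csn1s2a were at background in all groups, while Csn3 read 9.21, 7.45, 8.71, 8.76 and 9.50 in Py117 tumours. Sebaceous gland markers averaged 4.79 to 5.36 over all arrays, with Scd3, Awat2, Elovl3 and Far2 at background in all groups. Of 7 measured, 2 were lower in Py8119 than in Py117 tumours, Cidea itself and Krt79 (-0.88, limma adjusted p 0.000323), which was also high in Py117 culture, at 7.23 to 7.43. The part of milk-producing cells in the level of Thrsp, G0s2 and Cidea was not tested.

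**Figure D3:**
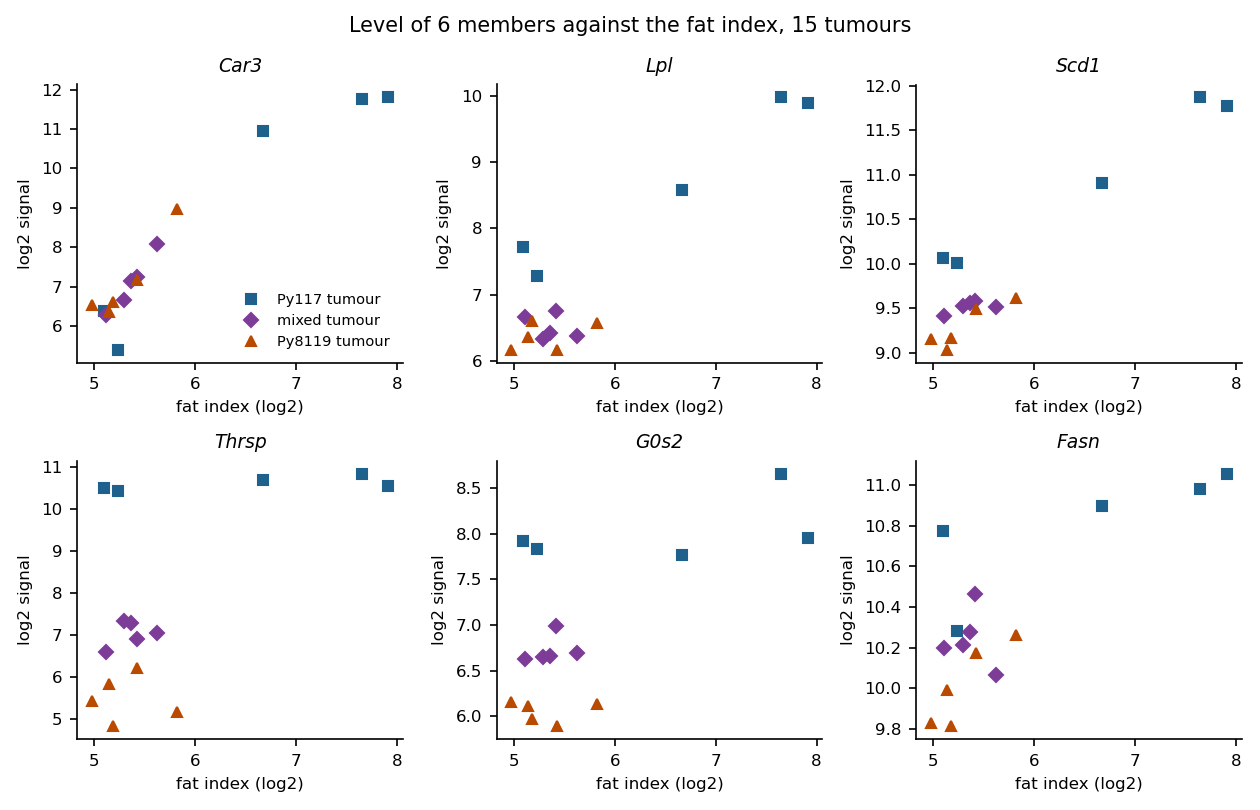
Log2 signal (y axis) of 6 members against the fat index (log2, x axis) in the 15 tumours, by group. Car3 goes from 5.39 to 11.81 along the index in Py117 tumours, whereas Thrsp stays between 10.44 and 10.85 and Fasn between 10.28 and 11.06 in those tumours.

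A further set was abundant in the cultured carcinoma cells themselves, which hold no host tissue. In both cultures 9 of 32 members had means more than 2 log2 units above background: Fasn, Acly, Elovl6, Scd1 and Me1, Acaca, Agpat2, Pnpla2 and Dgat1, with means from 7.67 to 11.2. Of these 9, 2 had a called slope in tumours, Scd1 and Pnpla2. Of the other 23 members, 20 were tested for a slope and 12 were called. This split depends on the threshold. At an unadjusted p under 0.05 in limma, 5 of the 7 members for fatty acid synthesis, a set that includes Thrsp, had a positive slope (median 0.17). So did 22 of all 29 members tested.

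Fasn, fatty acid synthase, read 11.15, 11.29 and 11.16 in Py117 culture, 11.03, 10.98 and 10.79 in Py8119 culture, 10.98, 10.78, 10.28, 10.90 and 11.06 in Py117 tumours, 10.07, 10.46, 10.20, 10.21 and 10.28 in mixed tumours and 10.17, 9.99, 9.83, 10.26 and 9.81 in Py8119 tumours. Its highest signals were thus in culture, and its slope of 0.20 ± 0.06 was not called (limma adjusted p 0.105). Acly, which makes cytosolic acetyl-CoA from citrate, read 9.78 to 10.60 over all 21 arrays. Elovl6, which lengthens the products of Fasn, read 10.70 to 10.96 in culture and 9.48 to 10.45 in tumours, with no overlap.

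Scd1, the desaturase that makes oleate, belonged to both patterns. It read 10.70, 10.59 and 10.51 in Py117 culture and 9.95, 9.81 and 9.58 in Py8119 culture, without overlap. In Py117 tumours it read 11.87, 10.06, 10.002, 10.90 and 11.77, so that tumours 1, 4 and 5 were above the culture and tumours 2 and 3 below it. In mixed tumours it read 9.42 to 9.58 and in Py8119 tumours 9.03 to 9.61. The difference in Scd1 between all 5 Py117 tumours and Py117 culture was not called.

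Comparing the lines without host tissue, Py8119 culture had 3 members higher and 5 lower than Py117 culture, and 24 were not called (limma, adjusted p under 0.05). Over all genes 26.8% were called, 14.5% higher and 12.3% lower. None of the 8 called members overlapped between the cultures. With 3 arrays against 3 this adds nothing to the call: of 5942 genes called in all, 5941 did not overlap, 26.8% of all genes. The median member difference was -0.13, beside -0.01 for all genes.

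Higher in Py8119 culture were Fabp4, at 5.49, 5.53 and 5.46 against 4.00, 4.23 and 4.03 in Py117 (difference 1.41 ± 0.10, SE, limma adjusted p 8.16e-05), Dgat2, the last step of triglyceride synthesis (0.88 ± 0.14, 0.00338), and Acly (0.48 ± 0.11, 0.0141). Fabp4 in Py117 culture was at background, so that the fold is measured against background. Lower were Scd1 (-0.82 ± 0.12, 0.00246), Agpat2, an acyltransferase of triglyceride assembly (-0.50 ± 0.10, 0.00776), Pparg (-0.51 ± 0.10, 0.00837), Lipe, hormone-sensitive lipase (-0.43 ± 0.11, 0.0288), and G0s2 (-0.69 ± 0.20, 0.0425). For the other genes of fatty acid synthesis no difference between the cultures was called: Fasn differed by -0.26 ± 0.10 (0.114), Me1 by 0.20 ± 0.09 (0.172), Thrsp by -0.24 ± 0.24 (0.518), Acaca by 0.07 and Elovl6 by 0.10. Leaving out any 1 of the Py117 cultures gave 3 lower calls in place of 5.

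In tumours, Py8119 had 0 members higher and 22 lower than Py117, with 10 not called in limma, against 37.4% of all genes called, 21% higher and 16.5% lower. At an unadjusted p under 0.05, 1 was higher and 25 were lower, with no share of all genes computed at that threshold. The median member difference was -1.06, beside 0.01 over all genes. In 11 of the 22 the 2 groups did not overlap, a pattern that 11.8% of all genes showed in that direction. Lists of other cell types differed in the same comparison: 9 of 9 markers of fat stroma and fibroblasts were lower in Py8119 tumours (median -1.98), 10 of 10 endothelial (median -1.46) and 8 of 10 mammary epithelial markers (median -1.58). Stromal markers averaged 9.12 to 10.13 in Py117 tumours, 7.66 to 8.39 in mixed and 7.46 to 8.36 in Py8119 tumours, and their part in the member differences was not tested.

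Among called members the largest differences were those of Thrsp at -5.12 ± 0.21 (SE, limma adjusted p 2.14e-12), Lpl at -2.32 ± 0.39 (9.78e-05), Fabp4 at -2.04 ± 0.68 (0.0243), G0s2 at -1.98 ± 0.14 (2.94e-09) and Cd36 at -1.88 ± 0.44 (0.00219). Other called members included Scd1 at -1.63 ± 0.29 (0.000172), Pck1 at -1.58 ± 0.47 (0.0121), Cidec at -1.48 ± 0.53 (0.0351), Retn at -1.46 ± 0.52 (0.0351), Pparg at -1.41 ± 0.27 (0.000349), Cidea at -1.07 ± 0.12 (1.58e-06) and Fasn at -0.78 ± 0.14 (0.000126). The standard errors set these genes apart: those of Fabp4 and Pck1 were several times that of G0s2, and for both Py117 tumours 2 and 3 lay within the range of the Py8119 tumours. Adipoq, at -1.07 ± 0.47 (0.0862), and Car3, at -2.13 ± 1.02 (0.121), did not pass, although Py117 tumours 1, 4 and 5 were above all Py8119 tumours for both. Acly at 0.08, Elovl6 at 0.12, Acaca at -0.19 and Dgat1 at 0.27 ± 0.12 (0.102) were not called.

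With the fat index as a covariate, 10 of the 29 members outside the index were lower in Py8119 tumours and 1 was higher, where without it 20 were lower and 0 higher. Over all genes that fit called 15.3% lower and 20.6% higher, close to the 16.5% and 21% without the index. Thrsp kept a difference of -5.02 (limma adjusted p 8.96e-11), G0s2 of -1.82 (8.01e-08), Cidea of -1.05 (2.95e-05) and Fasn of -0.54 (0.0032). Lpl fell by 1.29 (4.8e-05) and Scd1 by 0.83 (9.19e-06), both less than without the index. Cebpa at -0.64, Pparg at -0.70, Cd36 at -0.65 and Gpd1, which makes glycerol phosphate, at -0.48 were also still called. No call was left for Retn at -0.02 (0.958), Fabp4 at -0.20 (0.663), Lep at -0.25 (0.191), Pck1 at -0.26 (0.203) or Dgat2 at -0.30 (0.0667). Dgat1 was higher by 0.52 (0.00147). The index was on average higher in Py117 tumours, so for any member with a positive slope the smaller fall follows from the fit. The lost calls thus restate the slopes and are no test.

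Leaving out Py117 tumours 1, 4 and 5, an alternative added after the data were seen, gave 9 lower and 1 higher, against 15.9% and 21% of all genes, with Thrsp at -4.98 (limma adjusted p 5.81e-09), G0s2 at -1.83 (2.24e-08), Cidea at -1.09 (3.05e-05), Lpl at -1.13 (6.14e-05) and Scd1 at -0.74 (0.000676). Pparg at -0.56, Cebpa at -0.63, Fasn at -0.51 and Gpd1 at -0.44 were the other lower calls, and Dgat1 at 0.58 (0.00133) the higher one. The 3 tumours were picked because fat cell genes were high there, so for any member with a slope on the index the smaller difference follows from that choice and is no test. This comparison sets 2 Py117 tumours against 5.

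**Figure D4:**
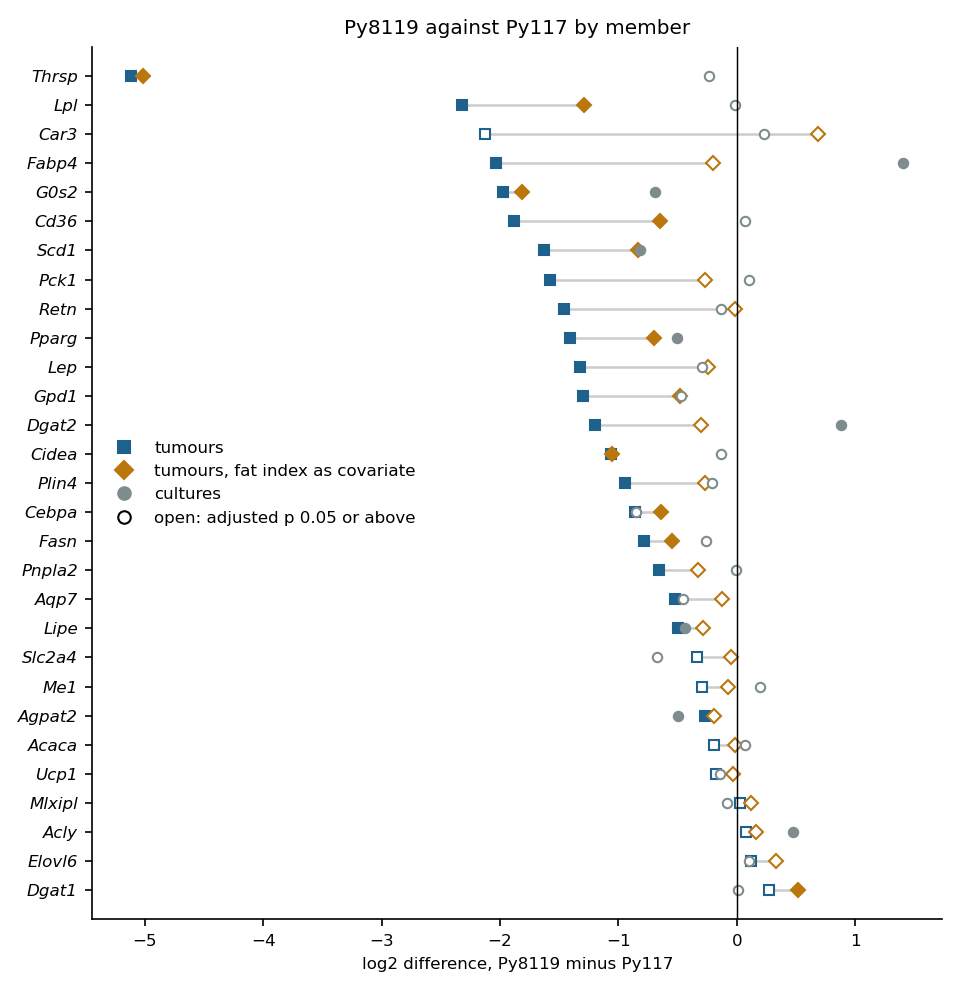
Difference of Py8119 minus Py117 (log2, x axis) for the 29 members outside the index, in tumours (squares), in tumours with the fat index as a covariate (diamonds) and in cultures (circles), filled where called. Thrsp is at -5.12 and -5.02 in tumours with the cultures at -0.24, while Retn moves from -1.46 to -0.02 and Fabp4 from -2.04 to -0.20.

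Mixed tumours lay below Py117 tumours in most of these genes. Against Py117 tumours they had 0 members higher and 24 lower (limma, adjusted p under 0.05), where 36.1% of all genes were called, 19.2% higher and 16.9% lower. At an unadjusted p under 0.05, 1 was higher and 27 were lower, with no share of all genes computed at that threshold. The median member difference was -1.04, beside -0.03 for all genes, with Thrsp at -3.57 ± 0.21 (6.02e-10), Lpl at -2.19 ± 0.39 (0.000219), Scd1 at -1.40 ± 0.29 (0.00087) and G0s2 at -1.31 ± 0.14 (8.28e-07). With the index as a covariate 11 of 29 were lower and 2 higher, Acly by 0.30 (0.0404) and Dgat1 by 0.40 (0.00993), where without it 22 were lower and 0 higher. Over all genes that fit called 18.3% lower and 19.6% higher. Here too the lost calls of members with a slope follow from the fit and are no test.

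Between Py8119 and mixed tumours, 2 members were lower in Py8119 and 0 higher by limma, and the same numbers passed at an unadjusted p under 0.05. Over all genes 1.78% were called at the adjusted threshold, 1.61% lower and 0.162% higher, and no unadjusted share was computed. The 2 were Thrsp, by -1.54 ± 0.21 (adjusted p 0.000244), and G0s2, by -0.67 ± 0.14 (0.0134), and for both no mixed tumour overlapped a Py8119 tumour, as for 1.53% of all genes in that direction. Without mixed tumour 2 the count was 1, Thrsp alone. These 3 tumour comparisons share groups, so their counts are not independent. The comparisons also share 1 fit, so the spread used for Py8119 against mixed tumours includes that of Py117 tumours. Gpd1 had a range of 1.997 in Py117, 0.34 in mixed and 0.13 in Py8119 tumours. Its difference of -0.26 between Py8119 and mixed tumours had a standard error of 0.31. The standard errors of Lpl, Cd36 and Car3, also most variable in Py117 tumours, were 0.39, 0.44 and 1.02. For such members a missing call does not show that mixed and Py8119 tumours are alike.

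Each line was also set against its own culture. Py117 tumours had 10 members higher and 2 lower than Py117 culture (limma), against 12.4% and 18.3% of all genes, 30.7% in all. Thrsp was higher by 4.57 ± 0.19 (SE, adjusted p 7.42e-08), Fabp4 by 5.55 ± 0.90 (0.000848), Cd36 by 4.46 ± 0.61 (0.000283), Lpl by 3.73 ± 0.56 (0.000516) and Cebpa by 1.97 ± 0.21 (4.68e-05). G0s2, Cidea, Pnpla2, Plin4 and Car3 were the other 5, by 1.09, 0.82, 0.69, 1.03 and 4.22. Fabp4, Cd36, Lpl, Cidea and Car3 were at background in Py117 culture, so their differences are measured against background signal and not against a level of the gene. Agpat2 fell by 0.63 and Elovl6 fell by 0.70. The count of higher members was 18 without Py117 tumour 2 and 7 without Py117 tumour 5 or any 1 culture.

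In Py8119 tumours 6 members were higher and 8 lower than in Py8119 culture, against 16.3% and 20.9% of all genes, 37.1% in all. Here too Cd36 (2.52 ± 0.22, SE, limma adjusted p 1.6e-05), Fabp4 (2.10 ± 0.31, 0.000396), Lpl (1.43 ± 0.22, 0.000624) and Cebpa (1.95 ± 0.21, 6.22e-05) rose, as did Car3 by 1.86 ± 0.52 (0.0176) and Retn by 0.79 ± 0.24 (0.0263). Of these, Cd36, Lpl, Cebpa and Car3 were at background in Py8119 culture. The 8 lower ones were all enzymes of fat synthesis: Fasn (-0.92 ± 0.13, 0.000242), Elovl6 (-0.68 ± 0.10, 0.000337), Acaca (-0.59 ± 0.09, 0.000478), Me1 (-0.59), Dgat2 (-1.12), Scd1 (-0.49), Acly (-0.38) and Agpat2 (-0.41). Fasn read 10.79 to 11.03 in culture and 9.81 to 10.26 in these tumours, with no overlap.

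Cd36, Fabp4 and Lpl were above culture in every tumour of every group, those with the lowest index included. Cd36 read 4.02 to 4.74 in the 6 cultures, all at background, 9.94, 7.17, 7.67, 9.07 and 10.22 in Py117 tumours, 7.56, 6.87, 7.06, 6.69 and 6.87 in mixed and 7.13, 6.49, 6.83, 7.47 and 6.75 in Py8119 tumours. Fabp4 read 11.29, 7.66, 7.35, 10.33 and 11.53 in Py117 tumours, 9.09, 7.71, 7.35, 7.21 and 7.55 in mixed and 7.13, 6.97, 7.55, 8.62 and 7.71 in Py8119 tumours, with mixed tumour 1 and Py8119 tumour 4 again the highest of their groups. Lpl read 9.98, 7.71, 7.28, 8.58 and 9.90 in Py117 tumours, 6.33 to 6.75 in mixed and 6.16 to 6.60 in Py8119 tumours. Even Py117 tumours 2 and 3 were above all of those in Lpl, but not in Fabp4.

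Endothelial cells and macrophages are known to express these genes as well. Endothelial markers averaged 5.07 to 5.42 in culture, 7.55 to 8.37 in Py117 tumours, 6.81 to 6.99 in mixed and 6.36 to 6.77 in Py8119 tumours, and 10 of 10 were lower in Py8119 than in Py117 tumours, beside 16.5% of all genes. Macrophage markers averaged 5.49 to 5.91 in culture, 9.58 to 9.97 in Py117 tumours and 10.21 to 10.58 in the others, with 7 of 10 higher in Py8119 than in Py117 tumours, beside 21% of all genes. Group means reached 10.4 for Cdh5 and 12.2 for C1qb, which are not levels to compare between genes. The part of either cell type in the level of Cd36, Fabp4 and Lpl was not tested. B cell and lymph node markers averaged 4.50 to 5.10, and Ms4a1, Cd79a, Cr2 and Fcer2a were at background in all groups. The other 4 of the 8 measured had means above background in Py117 tumours: Cd22 at 5.99, Cd79b at 5.50, Blk at 5.49 and Pax5 at 5.38. In Py8119 tumours 3 of 8 were higher than in Py8119 culture, beside 16.3% of all genes.

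The difference between the lines in tumours was itself compared with that in culture, as an interaction in limma. It was below 0 for 6 of 32 members and above 0 for 0, beside 5.99% and 7.50% of all genes, 13.5% in all. At an unadjusted p under 0.05, 12 were below and 0 above, with no share of all genes computed at that threshold. Thrsp was at -4.88 ± 0.35 (SE, adjusted p 1.10e-07), G0s2 at -1.29 ± 0.26 (0.00284), Cidea at -0.93 ± 0.25 (0.0175) and Lpl at -2.30 ± 0.67 (0.0296). Fabp4 at -3.44 ± 1.06 (0.0396) and Dgat2 at -2.08 ± 0.54 (0.0158) were higher in Py8119 in culture and lower in tumours. Lpl and Cidea were at background in both cultures and Fabp4 in Py117 culture. For these genes the culture part of the interaction has no firm value. The call of Fabp4 was lost in 13 of 16 fits that each left out 1 array (adjusted p up to 0.0798), that of Lpl in 3 and that of Cidea in 2. Without Py117 culture 3 the count was 3, and without Py117 tumour 2 or 3 it was 10.

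Some members stayed at or near background. Ucp1, the uncoupling protein of brown fat, read 4.21 to 5.03 and Mlxipl, the carbohydrate-responsive factor ChREBP, 4.67 to 5.21 over all arrays, both at background in all groups. Slc2a4, the insulin-responsive glucose transporter, read 3.97 to 6.04. Aqp7, the glycerol channel, read 5.08 to 6.83, with a mean above background in all 5 groups and the called slope given before. Over the list, 23 members had a mean above background in Py117 culture, 19 in Py8119 culture, 30 in Py117 tumours and 25 each in mixed and Py8119 tumours. A weaker second probe set existed for G0s2, Lpl, Gpd1 and Car3. Its means were at most 5.26, 4.45 and 4.86 for the first 3 and 6.25 for Car3, reached in Py117 tumours for Lpl and Car3.

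Of 65 other genes of the same pathways, 8 were higher and 38 lower in Py8119 than in Py117 tumours by limma, and 7 had a positive slope, beside 21% higher, 16.5% lower and 1.19% with a positive slope over all genes. Of 20 other fat cell genes, 17 were lower and 5 had a slope, among them Aoc3, an amine oxidase of fat cells (-1.997 ± 0.34, SE, adjusted p 0.000121; slope 0.77), while Itih5 was lower by -1.53 ± 0.14 (1.32e-07) with no called slope. Of 7 other droplet genes 4 were lower and 1 higher, with Plin2 at -0.90 ± 0.10 (7.45e-07). Of 18 other lipogenesis genes 10 were lower and 4 higher, led by Srebf1 at -2.52 ± 0.11 (1.11e-11). The desaturase Fads1 differed in culture by 1.33 ± 0.13 (0.000321) and in tumours by -0.02 (0.923).

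Of 12 fatty acid oxidation genes 6 were lower in Py8119 tumours and 1 higher, with Acadl at -1.62 ± 0.12 (limma adjusted p 7.99e-09) beside -1.26 between the cultures, and Ppargc1a at -1.50 ± 0.16 (5.48e-07). Of 9 thermogenic genes 2 were lower and 2 higher, 4 of 9 in all where 37.4% of all genes were called. Cox8b, at -1.42 ± 0.37 (0.00521), had a slope of 0.75, and Letmd1 was higher by 0.93. Outside all lists the smallest adjusted p for a positive slope belonged to Cdo1, cysteine dioxygenase (1.21 ± 0.10, 2.12e-06), Kcnk5 (0.92), Cyp2e1 (0.96), Glb1l2 (0.58), Abcd2, a peroxisomal fatty acid transporter (0.75), Mcpt1, a mast cell protease (1.18), Fras1 (0.50) and Plcb4 (0.44).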

How the data were processed

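RNA of 21 samples was measured on Affymetrix whole-transcript mouse arrays. Per the submitters' processing notes, RMA and limma were used by the authors, without versions. The values they deposited are on the log2 scale, 1 per probe set and array, and the genome build is not given in the sources used here. Of 41345 probe sets, 23521 had a single symbol, 1814 several and 16010 none. Single-symbol probe sets were used, the one with the highest mean for the 1082 genes with several. Differences and slopes were fitted with limma 3.58.1 in R 4.3.3 (lmFit, eBayes) over all genes, with Benjamini-Hochberg adjustment and calls at an adjusted p under 0.05, after the code was tested on simulated data. Culture, tumour and tumour-culture comparisons were separate fits, and the 15 tumours formed 1 fit. Depth has no meaning for arrays, and the number of arrays limits the precision. Figures used matplotlib 3.10.9 in Python 3.11.15. All measured members were described, with up to 3 genes per further list that differed most in tumours or cultures, and the 8 genes outside all lists with the smallest p for a positive slope. Pparg, Srebf1 and others given by sample were chosen for their pattern. The members, lists, index and most comparisons were chosen with earlier results of these data known, fat-rich Py117 tumours among them.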

Additional observations from a re-analysis of the deposited data

Results flagged for a closer look

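Single tumours stood apart within their group, by a gap to the nearest array that was large for the range of the group (Dixon's test at the 95% level), in 8 of the 96 sets of 5 tumours examined. Chance gives about 1 in 20 for independent sets. These sets share the same tumours, and many members varied together. The share of all genes was not computed, so the count describes the members alone. Py8119 tumour 4 was high in Adipoq (5.47, the next 4.56; gap over range 0.931) and in Pck1 (5.82, the next 5.35; 0.811). Mixed tumour 1 was high in Fabp4 (9.09, the next 7.71; 0.733) and low in Lipe (5.73, the next 6.04; 0.770). G0s2 was high in Py117 tumour 1 (8.66, the next 7.95; 0.798) and in mixed tumour 2 (6.99, the next 6.69; 0.822). Pparg was high in mixed tumour 5 (5.46, the next 5.26; 0.725), and Mlxipl, at background, was low in mixed tumour 3 (4.68, the next 4.92; 0.734).

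For 6 members the difference between the lines was not the same in tumours as in culture, by the interaction in limma: Thrsp (-4.88), Fabp4 (-3.44), Lpl (-2.30), Dgat2 (-2.08), G0s2 (-1.29) and Cidea (-0.93). Lpl and Cidea were at background in both cultures and Fabp4 in Py117 culture, so their culture difference has no firm value. The call of Fabp4 was lost in 13 of 16 fits that each left out 1 array.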

How the results depend on the processing

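Of 346 alternative counts of called members, 309 stayed within 1.5 times the value reported and 37 did not. Of 5354 alternative values of single genes, 4945 kept direction and side of the threshold, 302 lost a call, 100 gained one and 7 changed sign. Where no construction shows it, the cause was not tested.

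Centring arrays on their median gave 3 members lower between the cultures, 1 higher in Py8119 than Py117 tumours, 1 higher in mixed than Py117 tumours and 4 lower in Py117 tumours than culture. A single fit of all 21 arrays gave 1 higher between the cultures, and 20 higher and 4 lower in Py117 tumours than culture. A threshold of 0.01 gave 3 lower between the cultures, 13 lower in mixed than Py117 tumours, 1 lower in Py8119 than mixed, 1 lower in Py117 tumours than culture and 2 interactions. The mean of all probe sets left 1 lower in Py8119 than mixed tumours, and leaving out genes below the median level gave 1 higher in mixed than Py117 tumours. With the fat index as a covariate, members outside it were 10 lower and 1 higher in Py8119, and 11 lower and 2 higher in mixed, than in Py117 tumours; the Adipoq level as covariate gave 1 higher in each.

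Alternatives added after the data were seen left out Py117 tumours 1, 4 and 5 together, which gave 9 lower and 1 higher in Py8119, 8 lower and 1 higher in mixed than in Py117 tumours, and 5 lower in Py117 tumours than culture. Since those tumours were picked as high in fat cell genes, the choice fixes much of this, and it is no test. There the sign turned for Retn (0.27 in Py8119 against Py117, 0.25 in mixed against Py117), Cidec (0.26 and 0.34), Fabp4 (0.092 and 0.28) and, in Py117 tumours against culture, Scd1 (-0.57). The slope in mixed and Py8119 tumours alone was called for 1 member.

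Leaving out 1 array at a time gave 2 to 3 higher and 3 to 6 lower between the cultures, 0 to 1 higher and 18 to 25 lower in Py8119 than Py117 tumours, 0 to 1 higher and 18 to 27 lower in mixed than Py117 tumours, and 1 to 2 lower in Py8119 than mixed tumours. It gave 7 to 18 higher and 1 to 2 lower in Py117 tumours than culture, 5 to 7 higher and 6 to 9 lower in Py8119 tumours than culture, 3 to 10 interactions and 12 to 15 slopes. Fabp4, Retn, Cidec and Aqp7 lost a call in both comparisons with Py117 tumours in some of these fits.

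Replicate numbers were not used to pair the samples in the main fits. Of 36 same-numbered pairs, 6 had deviations correlated above 0.1 (range -0.23 to 0.26). Between Py117 and mixed tumours 1 to 5 these correlations were 0.16, 0.09, 0.26, 0.18 and -0.05. In 25 of 72 cases an array correlated best with its own number. The number expected without pairing was not computed, so these values do not decide whether the numbers pair samples. With a replicate block there were 3 members higher and 5 lower between the cultures, 23 lower in Py8119 and 24 lower in mixed than Py117 tumours, 2 lower in Py8119 than mixed, 7 higher and 2 lower in Py117 tumours than culture, 6 higher and 8 lower in Py8119 tumours than culture, 6 interactions and 12 slopes. Between the cultures the equal counts hold different members: G0s2 (limma adjusted p 0.0746) and Lipe (0.0707) were not called under the block, and Cebpa (0.0286) and Gpd1 (0.0298) were.

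With 3 arrays per culture and 5 per tumour group, a difference that missed the threshold is not shown to be absent, and values below 5.31 have no firm order.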
